A study of Mus musculus with 90 samples.

Results

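Cardiotoxin, a snake venom toxin injected into the muscle, kills muscle fibres and spares most muscle stem cells, and the tissue then rebuilds itself. The comparison described here sets 3 libraries of whole tibialis anterior (TA) muscle taken on day 7 after cardiotoxin against 3 taken on day 3. These 6 libraries are part of 90 RNA sequencing libraries of a study of the mechanically gated cation channel Piezo1. All 6 came from mice labelled wild type (WT), which carried intact Piezo1 alleles (Piezo1+/+) together with Pdgfra-Cre, a Cre recombinase transgene driven by the promoter of a gene of mesenchymal stromal cells. The Cre was thus present in the WT mice too. TA libraries of WT mice of that genotype at day 1 (4 libraries), and of mice with the same Cre and floxed Piezo1 (Pdgfra-Cre with Piezo1 f/f) at day 7 and day 3 (3 libraries each), are used where named. The day 1 libraries of the floxed mice (4) entered only the common fit. The labels give no age for the mice whose TA was taken, and do not say whether the replicates came from separate animals, so p-values measure the spread between libraries. Levels are CPM, the read counts of a gene relative to the library total after scaling between libraries with TMM factors. Differences are log2 values of day 7 minus day 3 with a standard error. Genes are called at a Benjamini-Hochberg adjusted p under 0.05 in the quasi-likelihood test of edgeR. The standard error was derived from that test, as the absolute log2 value divided by the square root of the F statistic.

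Regenerating muscle passes through overlapping steps. Neutrophils and then monocytes and macrophages enter the wound and clear dead fibres, and the stem cells divide as myoblasts, stop dividing under the control of the transcription factors Myod1 and myogenin, and fuse into new fibres. Young fibres first carry embryonic and neonatal myosins and a fetal acetylcholine receptor, and later replace them with adult fast or slow isoforms, while nerve, vessels and connective tissue are restored around them.

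Promoter windows of 8 genes whose levels are given below are shown because they hold short elements known from muscle, cell cycle and interferon genes. Each window runs from 250 bases before to 50 bases after the gene's start in RefSeq (GRCm38.p6), is written 5′ to 3′ on the gene's strand, and was searched on both strands for the elements in capitals. Chrne and Chrng encode the adult and the fetal subunit of the muscle acetylcholine receptor, Acta1 is skeletal actin, Cdc20 and Plk1 act in mitosis, Mcm5 is part of the helicase that opens DNA for replication, and Ifit3 and Isg15 are induced by interferon. Capitals mark the E-box CAGCTG in Chrne, Chrng and Acta1, and in Acta1 also a CArG box, the element bound by serum response factor. In Cdc20 and Plk1 they mark CCAAT and TTTGAA, in Mcm5 an E2F element (TTCCCGC or TTTGGCGC), and in Ifit3 and Isg15 the interferon element TTTCNNTTTC, whose matches overlap each other in Isg15.
Chrne, chr11:70619145-70619444, minus strand: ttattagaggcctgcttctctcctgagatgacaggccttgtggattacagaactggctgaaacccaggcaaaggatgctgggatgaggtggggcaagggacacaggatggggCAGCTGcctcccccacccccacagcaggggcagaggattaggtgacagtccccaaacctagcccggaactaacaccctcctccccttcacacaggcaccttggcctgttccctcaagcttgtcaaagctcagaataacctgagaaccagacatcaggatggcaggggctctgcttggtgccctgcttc
Chrng, chr1:87205561-87205860, plus strand: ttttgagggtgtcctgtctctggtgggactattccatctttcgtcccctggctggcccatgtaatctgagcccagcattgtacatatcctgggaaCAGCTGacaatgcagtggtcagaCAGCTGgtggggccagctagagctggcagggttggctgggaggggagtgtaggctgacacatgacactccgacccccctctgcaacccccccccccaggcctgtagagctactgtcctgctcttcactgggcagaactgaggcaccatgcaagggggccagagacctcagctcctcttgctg
Acta1, chr8:123894726-123895025, minus strand: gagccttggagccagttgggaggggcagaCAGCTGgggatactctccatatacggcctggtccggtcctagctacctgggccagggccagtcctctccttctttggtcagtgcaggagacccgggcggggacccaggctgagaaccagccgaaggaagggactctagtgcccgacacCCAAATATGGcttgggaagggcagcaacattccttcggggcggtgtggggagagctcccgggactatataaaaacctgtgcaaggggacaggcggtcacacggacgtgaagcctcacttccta
Cdc20, chr4:118437294-118437593, minus strand: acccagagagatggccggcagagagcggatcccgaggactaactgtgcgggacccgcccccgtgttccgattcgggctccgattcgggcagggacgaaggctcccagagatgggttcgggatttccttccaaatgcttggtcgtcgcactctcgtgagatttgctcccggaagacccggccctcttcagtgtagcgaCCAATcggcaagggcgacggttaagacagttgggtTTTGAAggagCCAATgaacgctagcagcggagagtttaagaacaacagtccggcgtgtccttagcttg
Plk1, chr7:122159185-122159484, plus strand: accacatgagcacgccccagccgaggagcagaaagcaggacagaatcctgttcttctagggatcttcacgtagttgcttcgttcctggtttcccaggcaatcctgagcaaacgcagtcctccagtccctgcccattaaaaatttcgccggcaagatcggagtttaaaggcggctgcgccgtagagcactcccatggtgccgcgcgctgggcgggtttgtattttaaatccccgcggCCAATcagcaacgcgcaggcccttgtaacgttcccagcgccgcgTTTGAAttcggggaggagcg
Mcm5, chr8:75109259-75109558, plus strand: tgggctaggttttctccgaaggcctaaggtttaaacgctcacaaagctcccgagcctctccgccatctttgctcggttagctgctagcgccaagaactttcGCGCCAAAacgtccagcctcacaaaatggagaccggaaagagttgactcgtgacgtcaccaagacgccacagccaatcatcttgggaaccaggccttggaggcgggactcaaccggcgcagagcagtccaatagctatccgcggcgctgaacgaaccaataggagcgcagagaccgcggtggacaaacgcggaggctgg
Ifit3, chr19:34583279-34583578, plus strand: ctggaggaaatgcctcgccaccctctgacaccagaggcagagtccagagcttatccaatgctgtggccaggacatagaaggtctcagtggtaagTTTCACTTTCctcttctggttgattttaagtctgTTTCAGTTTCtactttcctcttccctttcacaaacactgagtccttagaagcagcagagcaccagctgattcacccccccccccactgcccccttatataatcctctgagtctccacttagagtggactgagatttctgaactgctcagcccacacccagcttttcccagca
Isg15, chr4:156200769-156201068, minus strand: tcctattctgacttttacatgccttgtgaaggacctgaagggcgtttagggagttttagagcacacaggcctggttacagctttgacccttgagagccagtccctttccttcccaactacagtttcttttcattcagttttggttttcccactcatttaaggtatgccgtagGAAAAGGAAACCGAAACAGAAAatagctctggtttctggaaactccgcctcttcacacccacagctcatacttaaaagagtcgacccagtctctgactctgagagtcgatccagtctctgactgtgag

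Windows of the lists described below held these elements in the following shares, set beside all 32851 windows of the table. CAGCTG stood in 5 of 13 windows of acetylcholine receptor and synapse genes (38.5%), in 4 of 9 windows of fast sarcomere genes (44.4%) and in 16.3% of all windows. The CArG box stood in 2 of the 9 fast sarcomere windows (22.2%) and in 1.63% of all. CCAAT stood in 22 of 26 windows of G2 and M phase genes (84.6%), in 17 of 26 windows of S phase genes (65.4%) and in 37.4% of all. TTTGAA stood in 20 of the 26 G2 and M phase windows (76.9%), in 3 of the 26 S phase windows (11.5%) and in 17.9% of all. The E2F element stood in 14 of the 26 S phase windows (53.8%), in 0 of the 26 G2 and M phase windows and in 5.06% of all. The interferon element stood in 15 of 28 windows of interferon-stimulated genes (53.6%) and in 3.44% of all. A match is a stretch of letters and does not show that a factor bound there. The table held 9 of the 14 fast sarcomere genes, 10 of the 14 receptor and synapse genes, 25 of the 30 G2 and M phase genes, 24 of the 30 S phase genes and 24 of the 31 interferon-stimulated genes.

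Of 15499 genes tested, 3112 rose (20.1%) and 3478 fell (22.4%) at day 7 against day 3 in WT muscle, 6590 in all (42.5%). Among them 1791 were higher by a log2 of at least 1 and 2161 lower by at least as much, and in 6292 of the 6590 the 3 day 7 libraries did not overlap the 3 day 3 libraries. WT libraries held 8324418 to 8499067 counts at day 7 and 6594919 to 8547180 at day 3. Correlations of log CPM were 0.959 to 0.964 within day 7, 0.961 to 0.972 within day 3 and 0.851 to 0.912 between the days, and each day 7 library correlated best, among the day 3 libraries, with replicate 3. Genes of the sarcomere lists took 19.8% to 20.4% of all counts at day 7 and 5.35% to 8.39% at day 3, and the TMM factors were 0.702 to 0.784 at day 7 and 1.17 to 1.26 at day 3. Scaled by library size alone, 1107 genes were called higher and 7768 lower, and the median log2 over all genes was -0.72, against -0.03 with TMM. The values below are therefore changes relative to the median gene, and lists whose direction flips without TMM are named as such. Counts of called genes per list are to be read against the 20.1% called higher and 22.4% called lower over all genes. The lists and their members were chosen with earlier results of these data known, so such counts describe the chosen lists only. In bulk tissue, fewer cells of a type and less RNA per cell cannot be told apart.

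All 14 genes of the adult fast sarcomere, the contractile apparatus of the fibres that make up most of the mouse TA, were higher at day 7. Each was without overlap, beside 6292 of all 6590 called genes. Their median log2 was 2.38, beside -0.03 over all genes tested. Summed over the list they took 241925 to 279182 CPM at day 7 and 40163 to 66881 CPM at day 3. Myh1, the fast myosin heavy chain IIX, stood at 17787, 22741 and 23807 CPM at day 7 and at 2531, 2417 and 3154 CPM at day 3 (log2 2.99 ± 0.35, adjusted p = 3.55e-07). Every day 7 library was thus several-fold above every day 3 library. Myh2, the heavy chain IIA of oxidative fast fibres, had the largest difference of the list, with 1153, 2060 and 1871 CPM at day 7 and 70.7, 101 and 152 CPM at day 3 (log2 3.97 ± 0.53, adjusted p = 7.49e-06). Myh4, the heavy chain IIB of the fastest fibres, measured 46185, 22827 and 25812 CPM at day 7 and 6898, 6594 and 11093 CPM at day 3 (log2 1.95 ± 0.37, adjusted p = 1.35e-04). Its highest library of each day was replicate 1 at day 7 and replicate 3 at day 3. Skeletal actin, Acta1, the most abundant of these transcripts in CPM, stood at 97129, 94489 and 94642 CPM at day 7 and at 15382, 17254 and 25700 CPM at day 3 (log2 2.29 ± 0.36, adjusted p = 1.46e-05). Of the other 10 members, the light chains Myl1 (log2 2.62) and Mylpf (log2 2.64) and the Z-disc protein Myoz1 (log2 2.66) rose most. The M-band protein Myom2 (log2 1.72) and the actinin Actn3 (log2 1.83) rose least, and between them lay the myosin-binding protein Mybpc2 (log2 2.27), tropomyosin Tpm1 (log2 2.42) and the troponins Tnnt3 (log2 2.35), Tnni2 (log2 2.29) and Tnnc2 (log2 2.43). Exons of Tnnc2 overlap those of Ube2c, a mitotic gene on the other strand, over 74% of the exon bases of Tnnc2, and the sources used here do not say whether counting used strand.

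Giant and Z-disc proteins, which set filament length and anchor the filaments, moved the same way, with 19 of 20 members called higher and none lower (median log2 1.88). Actn2, the alpha-actinin of the Z-disc in all striated fibres, stood at 4266, 5739 and 6264 CPM at day 7 and at 360, 548 and 670 CPM at day 3 (log2 3.37 ± 0.36, adjusted p = 1.55e-07). Neb, the nebulin ruler of the thin filament, had 12611, 11390 and 11302 CPM at day 7 and 2167, 2314 and 3998 CPM at day 3 (log2 2.06 ± 0.30, adjusted p = 5.94e-06). Neither gene overlapped between the days, and the actin-binding protein Xirp2 (log2 2.19) and the Z-disc protein Ldb3 (log2 2.18) were also called.

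Slow sarcomere genes were divided, with 5 of 10 called higher and 2 lower (median log2 1.76). Mybpc1, the slow myosin-binding protein C, which fast fibres of the mouse express as well, stood at 4937, 5087 and 6160 CPM at day 7 and at 547, 748 and 1105 CPM at day 3 (log2 2.75 ± 0.28, adjusted p = 4.21e-08). Myl2, the slow regulatory light chain, was low throughout, at 6.80, 16.1 and 11.7 CPM at day 7 and at 0.120, 0.289 and 0.233 CPM at day 3 (log2 5.62 ± 0.87, adjusted p = 1.70e-05). Myl3 (log2 2.51), Myoz2 (log2 2.49) and the M-band protein Myom3 (log2 1.91) were the other 3 called higher. Tropomyosin Tpm3 fell, to 78.6, 93.2 and 101 CPM at day 7 against 232, 224 and 183 CPM at day 3 (log2 -1.23 ± 0.16, adjusted p = 1.89e-06), and it is also expressed outside muscle. Slow troponin C, Tnnc1, which young fast fibres carry for a time, had 18.7, 31.8 and 43.8 CPM at day 7 and 60.4, 68.0 and 137 CPM at day 3 (log2 -1.49 ± 0.45, adjusted p = 0.0116). The call of Tnnc1 was lost without the filter on low counts, without replicate 1 of day 7 or without replicate 3 of day 3, which left 1 slow gene called lower. The slow myosin Myh7 (log2 1.61, adjusted p = 0.0839) and the slow troponins Tnnt1 (log2 0.19) and Tnni1 (log2 0.36) did not pass the test, and Myh7 was at 29.6 CPM or below in all 6 libraries.

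The developmental sarcomere genes did not move together. Their median log2 was 0.44, which turned to -0.23 without TMM. Neonatal myosin, Myh8, was higher at day 7, with 326, 724 and 1009 CPM against 50.7, 59.0 and 186 CPM at day 3 (log2 2.80 ± 0.51, adjusted p = 1.99e-04). Embryonic myosin, Myh3, had 241, 364 and 545 CPM at day 7 and 389, 539 and 1112 CPM at day 3, and the groups overlapped (log2 -0.82 ± 0.43, adjusted p = 0.133). Cardiac actin, Actc1, which marks young fibres, rose to 5354, 3998 and 4746 CPM at day 7 against 471, 714 and 1357 CPM at day 3 (log2 2.47 ± 0.38, adjusted p = 1.88e-05). Fetal and cardiac troponin T, Tnnt2, fell to 36.2, 44.7 and 69.4 CPM at day 7 against 158, 178 and 283 CPM at day 3 (log2 -2.04 ± 0.27, adjusted p = 2.54e-06). Among these 4 genes, Myh8 and Actc1 rose with the adult fast genes, and Tnnt2 fell. The atrial and embryonic light chain Myl4 had 210, 211 and 322 CPM at day 7 and 160, 205 and 379 CPM at day 3 (log2 -0.00 ± 0.32, adjusted p = 0.997). Myl6b did not pass the test (log2 0.88 ± 0.44, adjusted p = 0.108).

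Per length, as CPM per kilobase of exon, the myosin heavy chains shifted in their shares of the heavy chain total. Myh4 held 71.7%, 48.7% and 50.6% of it at day 7 and 70.6%, 69.1% and 72% at day 3. Myh1 held 26.1%, 46% and 44.2% at day 7 and 24.5%, 24% and 19.4% at day 3. Replicate 1 of day 7 thus lay near the day 3 libraries in both shares, and the other 2 day 7 libraries had less Myh4 and more Myh1. Myh2 held 1.51%, 3.71% and 3.09% at day 7 and 0.61%, 0.891% and 0.832% at day 3. Myh3 fell in share without overlap, to 0.372%, 0.773% and 1.06% at day 7 against 3.95%, 5.61% and 7.17% at day 3. At day 1 Myh3 held 0.0102% to 0.02% and Myh4 70% to 81.6%. The shares are descriptions with no test, and they rest on reads that the counting assigned among similar genes in a tandem cluster.

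**Figure D1:**
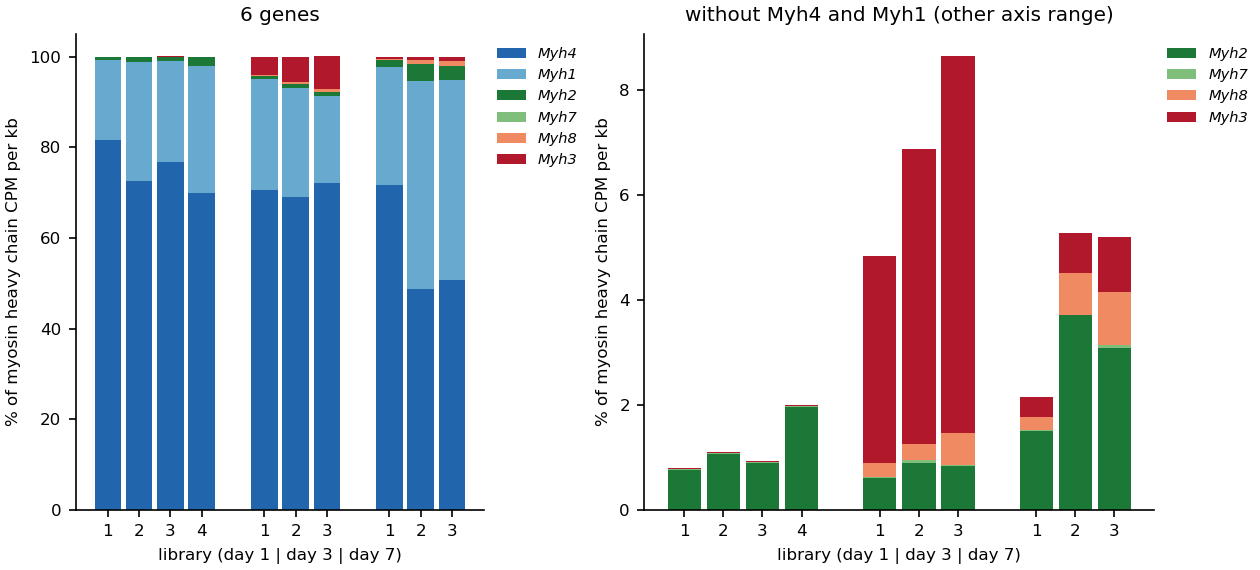
Shares of the myosin heavy chain total (percent of the summed CPM per kilobase of exon) in each WT tibialis anterior library at days 1, 3 and 7 after cardiotoxin. Myh3, embryonic myosin, held at most 1.06% in the 3 day 7 libraries and 3.95% to 7.17% in the day 3 libraries. Myh1 held 26.1%, 46% and 44.2% in replicates 1, 2 and 3 of day 7 and 19.4% to 24.5% in the day 3 libraries.

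Regulators of myogenesis fell more often than they rose, with 3 of 18 called higher and 7 lower (median log2 -0.33, beside -0.03 over all genes). Myog, myogenin, which commits myoblasts to differentiate, fell to 96.3, 138 and 160 CPM at day 7 against 962, 1111 and 939 CPM at day 3 (log2 -2.93 ± 0.35, adjusted p = 9.37e-07). The highest day 7 library was several-fold below the lowest day 3 library. Myod1, the regulator of activated myoblasts, fell to 67.9, 93.8 and 74.6 CPM at day 7 against 315, 279 and 219 CPM at day 3 (log2 -1.78 ± 0.18, adjusted p = 4.13e-08). Tead4, a DNA-binding partner of YAP, fell to 14.6, 10.6 and 8.75 CPM at day 7 against 34.0, 35.5 and 33.2 CPM at day 3 (log2 -1.60 ± 0.20, adjusted p = 8.55e-07). Also lower were the differentiation inhibitors Id1 (log2 -1.13) and Id3 (log2 -0.56), the Notch target Heyl (log2 -0.79) and Klf5 (log2 -1.09). The call of Klf5 was lost without replicate 1 or 2 of day 7 or replicate 2 or 3 of day 3. Mef2c, a driver of fibre maturation, rose to 592, 592 and 625 CPM at day 7 against 145, 176 and 275 CPM at day 3 (log2 1.60 ± 0.22, adjusted p = 3.00e-06). Myf6, the myogenic factor of mature fibres, was the second, at 124, 145 and 169 CPM at day 7 and 118, 90.9 and 64.8 CPM at day 3 (log2 0.68 ± 0.24, adjusted p = 0.0244). Mef2d was the other (log2 0.47 ± 0.19, adjusted p = 0.0487). Myf6 and Mef2d were not higher when scaled by library size alone, and without replicate 3 of day 7, or without replicate 2 of day 3, 1 regulator was called higher.

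Pax7, the factor of muscle stem cells, had 4.76, 6.91 and 6.14 CPM at day 7 and 3.62, 7.22 and 5.13 CPM at day 3 (log2 0.15 ± 0.37, adjusted p = 0.773). Myf5, present in stem cells and early myoblasts, had 1.53, 4.45 and 8.60 CPM at day 7 and 4.22, 6.07 and 8.97 CPM at day 3 (log2 -0.39 ± 0.46, adjusted p = 0.531). Both overlapped between the days, and at these levels the standard errors of 0.37 and 0.46 leave moderate changes undetectable. Mef2a, Six4, Msc, Hey1 and Mstn, the growth inhibitor myostatin, did not pass the test, with log2 values between -0.50 and 0.81, and Pax3 was too low to be tested.

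Of 18 adhesion and fusion genes tested, 9 were called lower at day 7 and 4 higher (median log2 -0.47), and both fusogens were among the lower. Mymx, myomerger, a membrane peptide needed to open the fusion pore, fell to 4.25, 4.15 and 4.61 CPM at day 7 against 54.6, 64.9 and 93.1 CPM at day 3 (log2 -4.03 ± 0.39, adjusted p = 4.19e-08). Mymk, myomaker, its partner in the myoblast membrane, fell to 40.8, 37.2 and 48.4 CPM at day 7 against 232, 253 and 396 CPM at day 3 (log2 -2.80 ± 0.25, adjusted p = 1.30e-08). Both fusogens were many-fold lower in every day 7 library than in any day 3 library, and at day 1 Mymx had been at 0, 0.236, 0.367 and 0.393 CPM. The cadherins Cdh15 (log2 -2.15), the M-cadherin of myoblasts, and Cdh2 (log2 -3.19), together with the membrane repair protein Myof (log2 -2.60), were also lower. So were Vcam1 (log2 -1.28), Megf10 (log2 -1.13) and Ncam1 (log2 -0.77), and Itga7 (log2 -0.54, adjusted p = 0.0413), whose call was lost without any of the 3 day 7 libraries or without replicate 1 or 2 of day 3. Higher at day 7 was Tmem182, a fibre protein that limits fusion (448, 344 and 353 CPM at day 7 and 139, 177 and 210 CPM at day 3, log2 1.12 ± 0.20, adjusted p = 5.84e-05). Jam2 (log2 0.73), Dysf, dysferlin of membrane repair (log2 0.69), and Neo1 (log2 0.41, adjusted p = 0.0432) were called higher too. The call of Neo1 was lost without any of the 3 day 7 libraries or without replicate 1 or 2 of day 3, and Dysf and Neo1 were not higher without TMM. Itgb1, Jam3, Nfatc2, Cdon and Boc did not pass the test (log2 between -0.41 and 0.37), and Adgrb1 and Adgrb3 were too low to be tested.

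**Figure D2:**
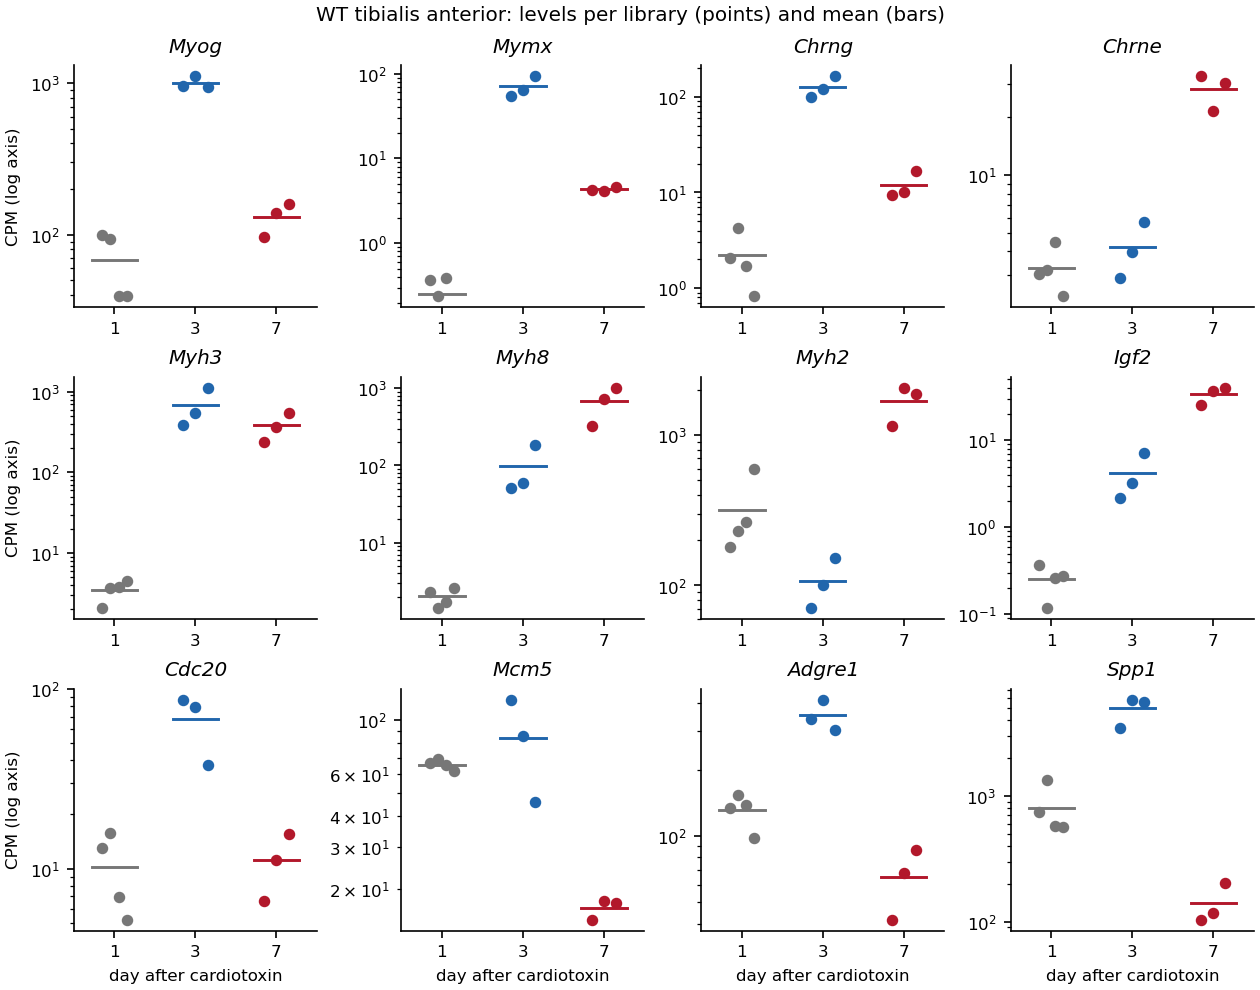
Levels (CPM, log axis) of 12 genes in each WT tibialis anterior library at days 1 (4 libraries), 3 and 7 (3 each) after cardiotoxin; points are libraries and bars are means. Myog, Mymx, Chrng and Spp1 were lower at day 7 than at day 3 and Chrne, Myh8, Myh2 and Igf2 higher, and 1 day 1 library of Mymx at 0 CPM is not drawn.

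Transcripts of the adult and the fetal subunit of the muscle acetylcholine receptor changed in opposite directions, and receptor protein was not measured. Chrne, the epsilon subunit of the adult receptor, rose to 32.8, 21.6 and 30.4 CPM at day 7 against 2.89, 3.95 and 5.71 CPM at day 3 (log2 2.75 ± 0.33, adjusted p = 4.34e-07). Chrng, the gamma subunit of the fetal receptor, fell to 9.36, 10.1 and 16.7 CPM at day 7 against 98.8, 120 and 164 CPM at day 3 (log2 -3.39 ± 0.36, adjusted p = 2.16e-07). Neither transcript overlapped between the days, and both promoters shown above hold CAGCTG, once in Chrne and 2 times in Chrng. Per length, the ratio of Chrne to Chrng was 8.64, 5.26 and 4.47 at day 7 and 0.0721, 0.0814 and 0.0857 at day 3. At day 1 the ratio was 1.85 to 6.98, with Chrne at 2.32 to 4.46 CPM and Chrng at 0.820 to 4.25 CPM. Subunits shared by both receptors were divided: Chrna1, the agonist-binding alpha subunit, fell to 116, 164 and 158 CPM at day 7 against 479, 512 and 568 CPM at day 3 (log2 -1.83 ± 0.17, adjusted p = 1.94e-08), and Chrnd fell by 1.82 on the log2 scale. Chrnb1, the beta subunit, rose to 132, 128 and 165 CPM at day 7 against 54.2, 66.4 and 66.0 CPM at day 3 (log2 1.19 ± 0.17, adjusted p = 6.02e-06).

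Over the whole list of 14 receptor and synapse genes, 4 were called higher and 4 lower, beside 20.1% and 22.4% over all genes. The median of 0.06 turned to -0.63 without TMM. Besides Chrne and Chrnb1, Ache, the acetylcholinesterase that ends transmission, rose to 135, 115 and 129 CPM at day 7 against 31.9, 48.2 and 68.4 CPM at day 3 (log2 1.35 ± 0.28, adjusted p = 5.26e-04). Lamb2, a laminin chain of the synaptic basement membrane, had a log2 of 1.06. The kinase Musk, which gathers receptors at the synapse, had 86.8, 71.7 and 76.8 CPM at day 7 and 123, 136 and 113 CPM at day 3 (log2 -0.66 ± 0.21, adjusted p = 0.0148), with the call lost without replicate 2 of either day. Genes of the assembly pathway around Musk did not pass the test: its activator Dok7 (log2 -0.28), the receptor anchor Rapsn (log2 -0.27), the agrin receptor Lrp4 (log2 0.33), agrin itself, Agrn (log2 0.49, adjusted p = 0.0546), the enzyme tail Colq (log2 -0.20) and Etv5 (log2 0.54).

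Other proteins too exist as a muscle form and a form of other tissues or of young fibres. In all, 12 such pairs, chosen after their values were seen, were set side by side as the ratio of the muscle form to the other form per length, with no test. In 11 of the 12 pairs all 3 day 7 ratios lay above all 3 day 3 ratios, and in 10 the muscle form was called higher and the other lower. As the choice came after the values, these counts describe the chosen pairs only. The day 3 ratios were also below all day 1 ratios in 10 of the 12 pairs. Ckm over Ckb, creatine kinase, was 279 to 379 at day 1, 26.3 to 36.4 at day 3 and 433 to 805 at day 7, and Tnnt3 over Tnnt2, troponin T, was 5379 to 8367, 68.0 to 72.1 and 996 to 2251 on the same days. Tnnt3 over Tnnt2 and Acta1 over Actc1 were the 2 pairs with every day 1 ratio above every day 7 ratio. Ckm stood at 35838, 27032 and 28032 CPM at day 7 and 5147, 5287 and 9123 CPM at day 3. Ckb, the brain form that myoblasts and other cells use, stood at 44.2, 39.8 and 64.3 CPM at day 7 and 184, 200 and 249 CPM at day 3. In glycolysis, Eno3 over Eno1 (enolase) was 98.9 to 144 at day 7 and 9.10 to 21.4 at day 3, Pgam2 over Pgam1 (phosphoglycerate mutase) 760 to 1683 and 35.2 to 107, and Pfkm over Pfkl (phosphofructokinase) 276 to 321 and 22.1 to 48.3. In mitochondria, Cpt1b over Cpt1a, the enzyme that admits fatty acids, was 0.943 to 1.25 at day 7 and 0.0622 to 0.142 at day 3, though Cpt1b shares 81.4% of its exon bases with a readthrough gene. The cytochrome oxidase pairs Cox6a2 over Cox6a1 (8.00 to 13.6 at day 7 and 0.743 to 1.54 at day 3) and Cox8b over Cox8a (4.87 to 7.36 and 0.513 to 0.904) changed alike. Both members rose in the pairs Cox7a1 with Cox7a2 (1.09 to 1.18 at day 7 and 0.349 to 0.524 at day 3) and Acta1 with Actc1, whose ratios overlapped (19.1 to 24.9 at day 7 and 19.95 to 34.4 at day 3).

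**Figure D3:**
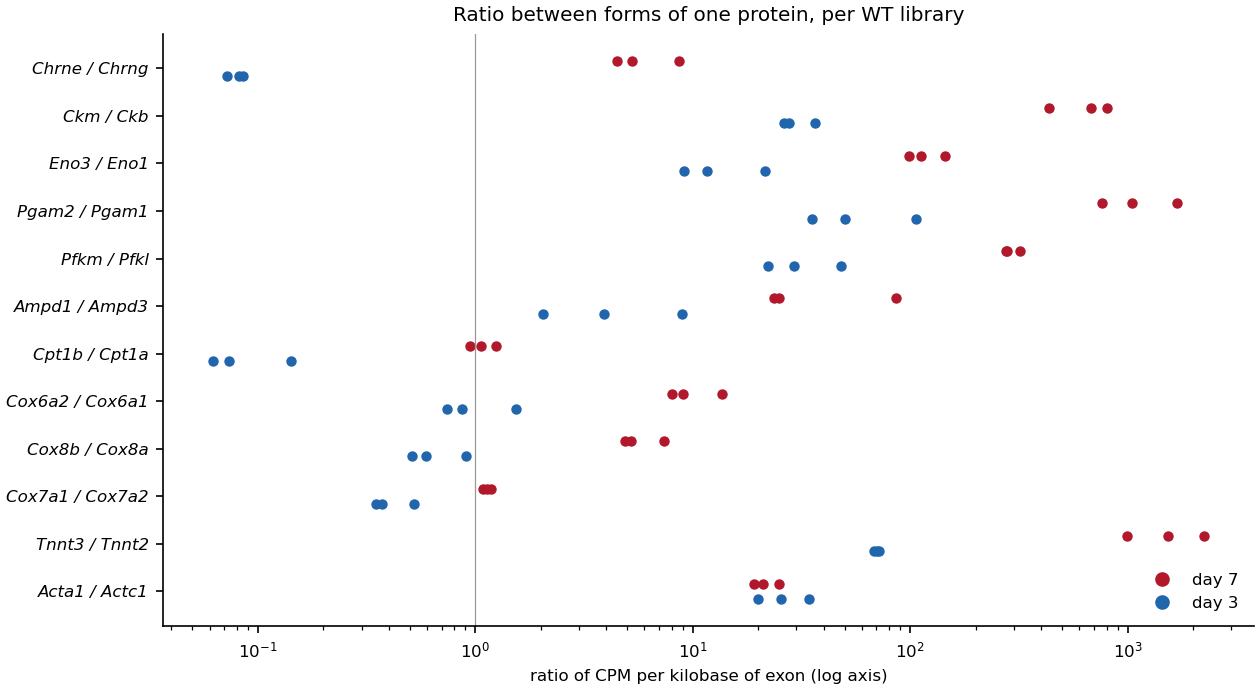
Ratio of the muscle form to the other form of 12 proteins (CPM per kilobase of exon, log axis) in each WT tibialis anterior library of day 7 and day 3. The 12 pairs were chosen after their values were seen. All day 7 libraries lay above all day 3 libraries in 11 pairs, with Chrne over Chrng at 4.47 to 8.64 at day 7 and 0.0721 to 0.0857 at day 3, and Acta1 over Actc1 was the pair that overlapped.

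Genes that couple excitation to contraction rose. Of 22 calcium handling genes 18 were called higher and none lower (median log2 1.59). Atp2a1, the fast calcium pump SERCA1 of the sarcoplasmic reticulum, stood at 83291, 55756 and 63346 CPM at day 7 and 7926, 8976 and 18285 CPM at day 3 (log2 2.52 ± 0.38, adjusted p = 9.15e-06). Casq1, calsequestrin, which stores the calcium, had 9610, 8490 and 8903 CPM at day 7 and 760, 1079 and 1970 CPM at day 3 (log2 2.83 ± 0.37, adjusted p = 1.86e-06). Pvalb, the calcium buffer parvalbumin of fast fibres, had 5958, 3504 and 3410 CPM at day 7 and 454, 587 and 1004 CPM at day 3 (log2 2.65 ± 0.34, adjusted p = 1.23e-06). All 3 genes were highest in replicate 1 among the day 7 libraries and in replicate 3 among the day 3 libraries. The reticulum proteins Hrc (log2 2.52) and Trdn (log2 2.29) followed.

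Among 13 genes of membrane excitability 9 were called higher and 2 lower (median log2 1.58). The chloride channel Clcn1, which stabilises the resting fibre, rose to 254, 183 and 184 CPM at day 7 against 30.4, 35.4 and 59.3 CPM at day 3 (log2 2.31 ± 0.31, adjusted p = 4.67e-06). The sodium pump subunit Atp1b2 (log2 2.41) and the potassium channel Kcnc1 (log2 2.59) rose as well. Kcnn3, an SK potassium channel of denervated fibres, was among the 2 called lower (log2 -0.67, adjusted p = 0.0462). Its call was lost, which left 1 called lower, with RLE scaling, without the filter on low counts, with only the libraries compared, and without replicate 1 or 3 of day 7 or replicate 2 or 3 of day 3. The dystrophin complex and costamere, which tie the fibre to its matrix, had 12 of 17 members called higher and none lower (median log2 1.15). Dmd, dystrophin, stood at 210, 212 and 186 CPM at day 7 and 40, 38.0 and 67.3 CPM at day 3 (log2 2.06 ± 0.19, adjusted p = 1.46e-08), and Ank1 (log2 1.75) and Cmya5 (log2 1.73) rose with it.

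Genes of energy metabolism rose along with the contractile genes. Of 25 genes of glycolysis and glycogen, 19 were called higher and 4 lower (median log2 1.55). Pygm, the muscle glycogen phosphorylase, had 6601, 3992 and 4219 CPM at day 7 and 810, 854 and 1448 CPM at day 3 (log2 2.25 ± 0.31, adjusted p = 3.34e-06), and Eno3 (log2 2.39), Pgam2 (log2 2.19), Tpi1 (log2 2.06) and Pfkm (log2 2.02) moved with it. The 4 genes called lower, Pgam1 (log2 -1.99), Pfkl (log2 -1.17), Pfkp (log2 -1.01) and Eno1 (log2 -0.72), are isoforms of other tissues. In the creatine and adenylate list 5 of 8 were called higher and 2 lower (median log2 1.38). Ckmt2, the mitochondrial creatine kinase (log2 2.39), Ak1 (log2 2.28) and Ckm (log2 2.22) rose. Ckb (log2 -2.09) and the AMP deaminase Ampd3 (log2 -1.06) were the 2 called lower.

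Nuclear genes of the respiratory chain moved almost as a block, with 30 of 32 called higher (median log2 1.63). Uqcrfs1, the iron-sulphur protein of complex III, stood at 1219, 1156 and 1223 CPM at day 7 and 282, 318 and 377 CPM at day 3 (log2 1.88 ± 0.19, adjusted p = 5.42e-08). Ndufb10 of complex I stood at 574, 610 and 613 CPM at day 7 and 144, 158 and 168 CPM at day 3 (log2 1.93 ± 0.20, adjusted p = 7.53e-08). The 2 called lower were Cox6a1 (log2 -1.03) and Cox8a (log2 -0.82), the forms of other tissues. Transcripts of the mitochondrial genome took 3.89% to 5.26% of counts at day 7 and 2.69% to 3.6% at day 3. Of 24 genes of fat oxidation and mitochondrial control 19 were called higher and 1 lower (median log2 1.25). Fabp3, the fatty acid carrier of muscle, had 325, 328 and 335 CPM at day 7 and 42.9, 55.7 and 69.2 CPM at day 3 (log2 2.56 ± 0.29, adjusted p = 3.08e-07). The oxygen store myoglobin, Mb, rose too (log2 2.40). Cpt1a, the liver form, was the gene called lower (log2 -1.44).

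**Figure D4:**
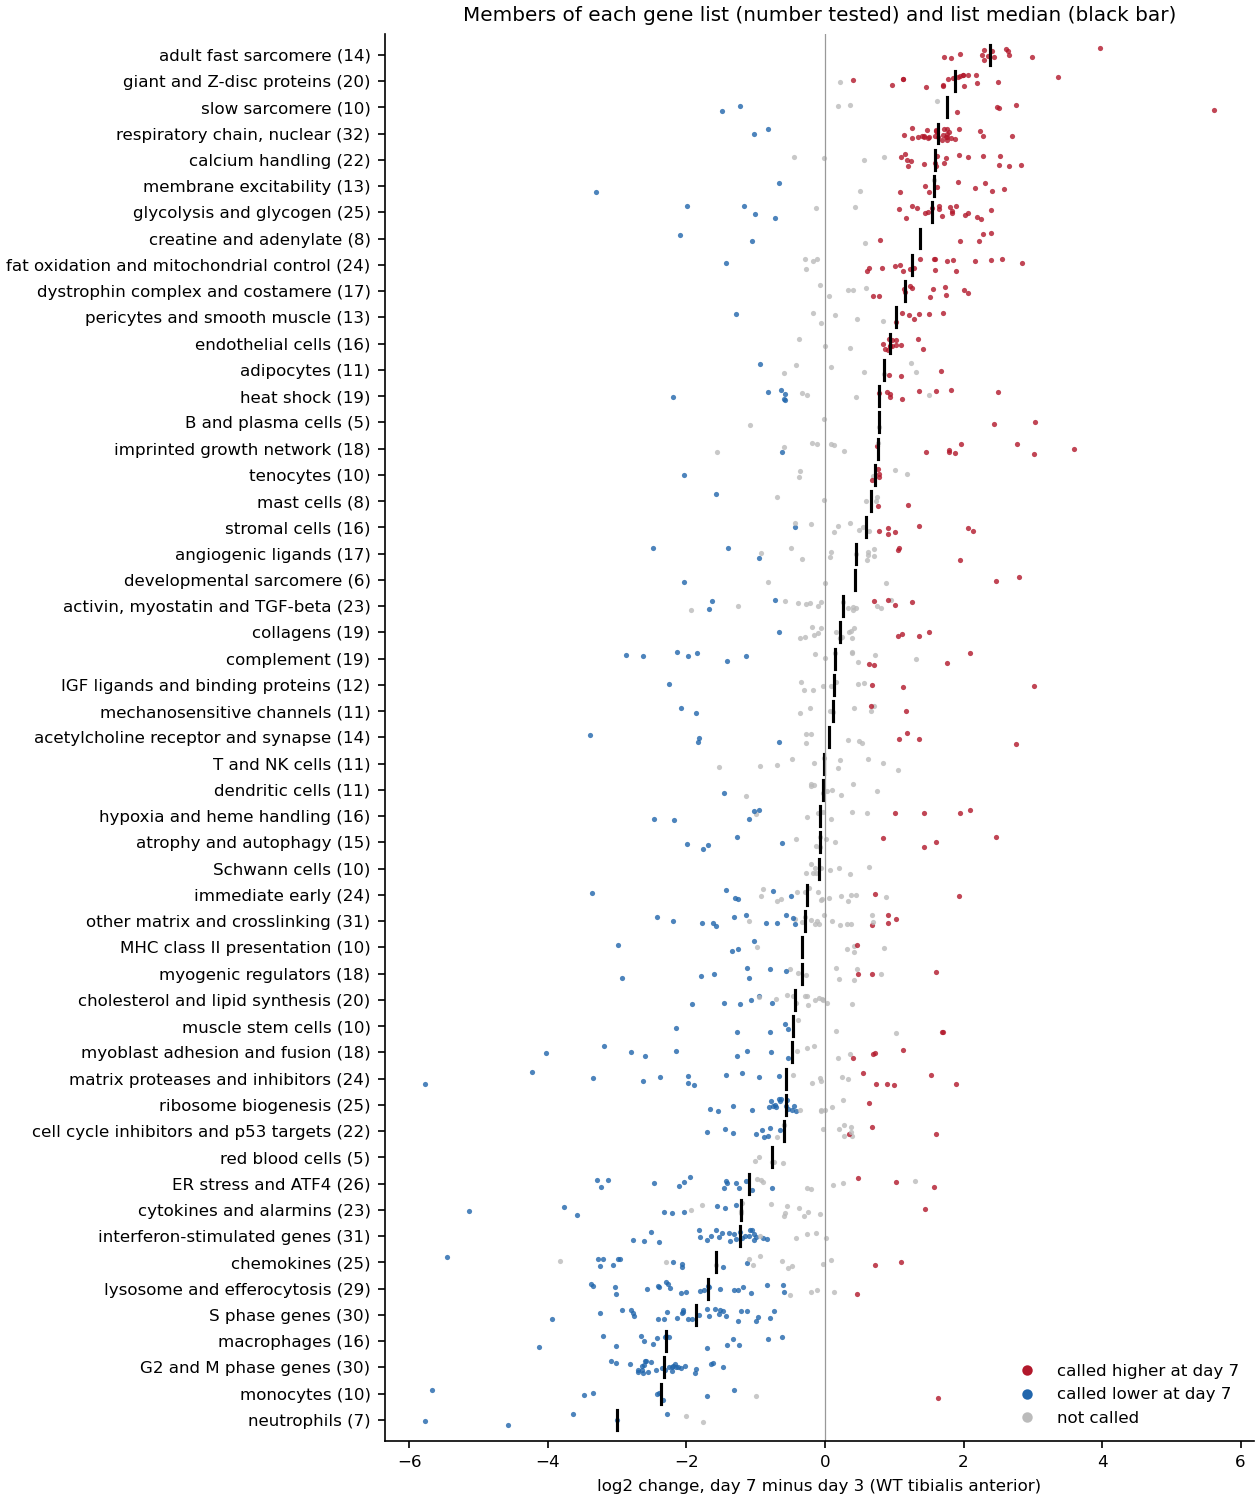
Log2 differences of day 7 minus day 3 in WT tibialis anterior for the tested genes of 53 lists; points are genes (red called higher, blue called lower, grey not called) and black bars are list medians. Lists of the fibre, such as the adult fast sarcomere (median 2.38), lie at the high end and lists of macrophages (median -2.30) and neutrophils (median -3.01) at the low end.

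Among imprinted genes of the growth network, expressed from 1 parental copy and active in growing tissue, 9 of 18 were called higher and 1 lower (median log2 0.76, or 0.08 without TMM). Igf2, insulin-like growth factor 2, an autocrine factor of differentiating myoblasts, stood at 25.4, 37.2 and 39.9 CPM at day 7 and 2.17, 3.27 and 7.22 CPM at day 3 (log2 3.02 ± 0.34, adjusted p = 1.76e-07), and at 0.118 to 0.367 CPM at day 1. An annotated readthrough gene shares 62.8% of the exon bases of Igf2. From the imprinted cluster on chromosome 12, Dlk1, a membrane protein of growing muscle, had 3.23, 8.91 and 8.75 CPM at day 7 and 1.08, 0.193 and 0.466 CPM at day 3 (log2 3.60 ± 0.61, adjusted p = 3.89e-05). The long RNA Meg3 of that cluster rose to 214, 260 and 395 CPM at day 7 against 26.9, 46.5 and 54.0 CPM at day 3 (log2 2.77 ± 0.26, adjusted p = 3.34e-08), and Mirg, also there, by a log2 of 1.97. Plagl1, a zinc finger factor of this network, had a log2 of 1.88. Mest was the gene called lower (log2 -0.63, adjusted p = 0.0154), and without replicate 1 of day 7 none was.

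Of 12 insulin-like growth factor ligands and binding proteins 3, Igf2 among them, were called higher (20.1% over all genes) and 1 lower, and the median of 0.13 turned to -0.57 without TMM. Igf1, named after its values were seen, had 89.0, 139 and 169 CPM at day 7 and 168, 168 and 153 CPM at day 3 (log2 -0.30 ± 0.20, adjusted p = 0.240). The binding protein Igfbp2 fell to 2.55, 2.15 and 1.69 CPM at day 7 against 7.23, 15.9 and 7.34 CPM at day 3 (log2 -2.26 ± 0.51, adjusted p = 9.05e-04), and Igfbp6 rose (log2 1.12, adjusted p = 0.00143). Without replicate 2 of day 7, 2 genes of this list were called lower. Of 23 genes of activin, myostatin and TGF-beta signalling, 4 were called higher and 3 lower, beside 20.1% and 22.4% over all genes. The 4 became 2 without replicate 2 of day 3, and the median of 0.26 turned to -0.43 without TMM. The latent TGF-beta binding proteins Ltbp1 (log2 -1.63) and Ltbp2 (log2 -1.67) and the receptor Tgfbr1 (log2 -0.72) were lower, and the activin receptor Acvr1b (log2 1.25) and Ltbp3 (log2 0.91) higher.

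Genes of cell division had lower transcript levels at day 7 throughout, and division itself was not measured. All 30 S phase genes (median log2 -1.87) and all 30 G2 and M phase genes (median log2 -2.33) were called lower. The days did not overlap in 28 of the S phase genes and all 30 of the others, beside 6292 of all 6590 called genes. Plk1, a kinase of mitosis, fell to 1.87, 6.45 and 6.76 CPM at day 7 against 60.4, 45.2 and 24.1 CPM at day 3 (log2 -3.09 ± 0.39, adjusted p = 1.60e-06). Cdc20, the activator of the anaphase ligase, named after its values were seen, had 6.63, 11.2 and 15.5 CPM at day 7 and 86.9, 79.3 and 37.5 CPM at day 3 (log2 -2.60 ± 0.35, adjusted p = 3.52e-06). At day 1 Cdc20 had 5.19 to 15.7 CPM. Mcm5, likewise named, had 15.0, 18.0 and 17.5 CPM at day 7 and 121, 85.7 and 45.7 CPM at day 3 (log2 -2.32 ± 0.27, adjusted p = 3.22e-07). In all 3 genes replicate 3 was the lowest of the day 3 libraries and still above every day 7 library. The repressor E2f8 (log2 -3.95), the nucleotide enzyme Rrm2 (log2 -3.25), Uhrf1 (log2 -2.93), Gins1 (log2 -2.80) and cyclin E1, Ccne1 (log2 -2.76), fell most among S phase genes. After Plk1, the largest falls in the mitotic list were those of Ttk (log2 -3.02), cyclin B1, Ccnb1 (log2 -2.81), Cenpe (log2 -2.70) and Cdca8 (log2 -2.69). Summed, the G2 and M phase list took 209 to 322 CPM at day 7 and 857 to 1713 CPM at day 3.

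Cell cycle inhibitors and targets of p53 were divided, with 3 of 22 called higher and 9 lower (median log2 -0.59). Cdkn1a, the inhibitor p21 that closes the cycle of differentiating myoblasts, fell to 92.9, 130 and 139 CPM at day 7 against 370, 400 and 407 CPM at day 3 (log2 -1.70 ± 0.23, adjusted p = 2.38e-06). The apoptosis gene Bax (log2 -1.45), cyclin D1, Ccnd1 (log2 -1.33), and Sesn1 (log2 -0.91) were also lower. Ccng1, a p53 target abundant in muscle, rose to 1442, 1087 and 1176 CPM at day 7 against 357, 374 and 493 CPM at day 3 (log2 1.60 ± 0.19, adjusted p = 3.94e-07). Ribosome biogenesis genes were lower in 18 of 25 and higher in 1 (median log2 -0.57). The nucleolar proteins Npm1 (117, 117 and 132 CPM at day 7 and 481, 415 and 265 CPM at day 3, log2 -1.66 ± 0.18, adjusted p = 1.06e-07), Nop58 (log2 -1.32), Fbl (log2 -1.55) and Ncl (log2 -1.06) fell. The exception Rrp12 (log2 0.64, adjusted p = 0.0115) lost its call without replicate 3 of day 3 and was not higher without TMM.

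Macrophage genes fell as a whole list. All 16 macrophage markers tested were called lower (median log2 -2.30), 15 of them without overlap, beside 6292 of all 6590 called genes. Their summed level was 985 to 1657 CPM at day 7 and 6678 to 8562 CPM at day 3. Adgre1, which encodes the surface protein F4/80 and was named after its values were seen, had 41.7, 68.2 and 86.1 CPM at day 7 and 340, 414 and 304 CPM at day 3 (log2 -2.43 ± 0.24, adjusted p = 3.91e-08). At day 1 it had 98.1 to 154 CPM. Lyz2, lysozyme of myeloid cells, fell to 578, 878 and 1010 CPM at day 7 against 4652, 5803 and 4594 CPM at day 3 (log2 -2.61 ± 0.24, adjusted p = 1.15e-08). Neither gene overlapped between the days, and the Fc receptor Fcgr1 (log2 -3.21), the lysosomal membrane protein Cd68 (log2 -3.02) and the fractalkine receptor Cx3cr1 (log2 -2.66) fell by comparable amounts. The integrin Itgam fell to 1.53, 2.00 and 2.92 CPM at day 7 against 35.5, 35.8 and 43.5 CPM at day 3 (log2 -4.13 ± 0.35, adjusted p = 5.13e-09), with 68.7% of its exon bases shared with an overlapping gene model.

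Monocyte markers had 8 of 10 called lower and 1 higher (median log2 -2.37). Ccr2, the receptor by which monocytes enter tissue, fell to 20.6, 40.4 and 35.3 CPM at day 7 against 160, 191 and 158 CPM at day 3 (log2 -2.40 ± 0.27, adjusted p = 2.79e-07), and Ly6c2 fell by 3.48 on the log2 scale. Chil3, a chitinase-like protein of monocytes and early macrophages, was nearly gone at day 7, with 0.340, 2.30 and 0.768 CPM against 74.0, 74.7 and 31.9 CPM at day 3 (log2 -5.68 ± 0.49, adjusted p = 3.15e-08). Ace was the marker called higher (55.0, 71.2 and 70.0 CPM at day 7 and 24.0, 20.6 and 18.9 CPM at day 3, log2 1.63 ± 0.22, adjusted p = 2.05e-06), and endothelial cells express it too. Of 7 neutrophil markers tested, 5 were called lower (median log2 -3.01), and their sum was 6.46 to 11.98 CPM at day 7 and 57.1 to 98.1 CPM at day 3. Csf3r (4.59, 7.98 and 8.45 CPM at day 7 and 39.6, 32.4 and 31.2 CPM at day 3, log2 -2.28 ± 0.38, adjusted p = 5.45e-05) made up much of that sum. The granule proteins S100a8 (log2 -3.01) and S100a9 (log2 -3.64) and the protease Mmp8 (log2 -5.78) were the others called lower with the receptor Cxcr2 (log2 -4.58). The listed markers Ly6g, Camp, Ngp, Mpo and Elane were too low to be tested.

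Lists of other leukocytes are given beside the 42.5% of all genes that were called. None of 11 T and NK cell markers was called, though 1 was lower without replicate 3 of day 7, and Cd3d, Cd3g, Cd8a, Trac and Foxp3 were too low to be tested. None of 3 eosinophil markers was called, and Epx and Ear1 had no count in the 6 libraries. Of 5 markers of B and plasma cells 2 were called higher. Igkc, the kappa light chain, had 11.6, 9.37 and 12.9 CPM at day 7 and 1.69, 1.16 and 1.28 CPM at day 3 (log2 3.03 ± 0.59, adjusted p = 1.84e-04). Jchain was the other (log2 2.44 ± 0.72, adjusted p = 0.00825) and lost its call without replicate 3 of day 7. Ms4a1 and Cd79a, which mark B cells, were too low to be tested. Of 8 mast cell markers 2 were called higher and 1 lower, and the median of 0.66 turned to -0.01 without TMM. Kit rose (10.7, 20.1 and 27.6 CPM at day 7 and 8.31, 8.96 and 8.16 CPM at day 3, log2 1.202 ± 0.31, adjusted p = 0.00257), and Hdc fell (log2 -1.57, adjusted p = 0.00838). Kit alone was higher without replicate 2 or 3 of day 7 or replicate 1 or 2 of day 3. Of 11 dendritic cell markers Itgax alone was called (21.8, 17.2 and 20.1 CPM at day 7 and 31.1, 63.5 and 68.2 CPM at day 3, log2 -1.46 ± 0.25, adjusted p = 3.40e-05), a gene that macrophages also express. Without replicate 2 of day 7, 2 were called lower and 1 higher.

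Of 25 chemokines 12 were called lower and 2 higher (median log2 -1.57), and the part of the lower macrophage and neutrophil marker levels in this was not tested. Ccl2, which draws monocytes, fell to 1.02, 8.29 and 4.61 CPM at day 7 against 54.8, 43.8 and 38.5 CPM at day 3 (log2 -3.27 ± 0.49, adjusted p = 2.56e-05), and it had stood at 510 to 611 CPM at day 1. Ccl7 (log2 -3.25), Ccl9 (log2 -3.06) and the neutrophil attractants Cxcl5 (log2 -5.45) and Cxcl1 (log2 -3.20) fell too, the last to at most 0.307 CPM at day 7 against at most 2.12 CPM at day 3. Cx3cl1, the ligand of Cx3cr1, rose (13.1, 16.9 and 18.3 CPM at day 7 and 10.96, 5.39 and 6.41 CPM at day 3, log2 1.09 ± 0.26, adjusted p = 0.00135). The eosinophil attractant Ccl11 rose too (log2 0.72) but lost its call without replicate 1 of either day.

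Of 23 cytokines and alarmins 9 were called lower and 1 higher (median log2 -1.21). Spp1, osteopontin, a matrix-bound cytokine of macrophages and myoblasts, fell to 103, 118 and 202 CPM at day 7 against 3493, 5851 and 5621 CPM at day 3 (log2 -5.15 ± 0.42, adjusted p = 5.24e-09), and at day 1 it had 564 to 1332 CPM. At day 3 it made up most of the list's summed level, which was 374 to 590 CPM at day 7 and 5039 to 7476 CPM at day 3. The interleukin 1 antagonist Il1rn (log2 -3.76), Gdf3, a ligand of macrophages in regenerating muscle (log2 -3.58), progranulin, Grn (log2 -2.32), and interleukin 1 itself, Il1b (log2 -2.20), fell as well. Hbegf, a growth factor of the EGF family, rose to 42.2, 36.7 and 32.9 CPM at day 7 against 10.2, 11.4 and 19.3 CPM at day 3 (log2 1.45 ± 0.28, adjusted p = 2.05e-04).

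Interferon-stimulated genes were lower in 26 of 31 and higher in none (median log2 -1.22). The antiviral synthetase Oas3 fell to 4.08, 10.1 and 5.22 CPM at day 7 against 39.5, 53.7 and 39.9 CPM at day 3 (log2 -2.77 ± 0.45, adjusted p = 4.80e-05). Oas1a (log2 -2.62), Mx1 (log2 -2.51), the nucleic acid sensor Zbp1 (log2 -2.40) and the regulator Irf7 (log2 -1.82) were also lower. Ifit3, whose promoter is shown above and which was named after its values were seen, had 24.3, 27.8 and 41.5 CPM at day 7 and 79.4, 102 and 60.9 CPM at day 3 (log2 -1.37 ± 0.46, adjusted p = 0.0216). Isg15, likewise named, had 3.91, 8.45 and 10.8 CPM at day 7 and 18.8, 29.2 and 19.1 CPM at day 3 (log2 -1.53 ± 0.41, adjusted p = 0.00454). Members of the Oas and Ifit families are close copies, so their reads may be divided among them.

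The lysosome and uptake of dead cells, tasks of macrophages clearing debris, had 24 of 29 genes called lower and 1 higher (median log2 -1.69). Lgals3, galectin 3, fell to 97.8, 108 and 145 CPM at day 7 against 1234, 1320 and 1098 CPM at day 3 (log2 -3.38 ± 0.22, adjusted p = 2.60e-10). Gpnmb, a glycoprotein of lipid-loaded macrophages, fell to 135, 117 and 208 CPM at day 7 against 1345, 1665 and 1667 CPM at day 3 (log2 -3.35 ± 0.26, adjusted p = 1.66e-09), and Fabp5 (log2 -3.03), Cd68 and the receptor Trem2 (log2 -2.57) were lower as well. Mfge8, a bridge between dead cells and phagocytes that stromal cells also secrete, was the 1 called higher (log2 0.47, adjusted p = 0.0202), not without TMM and not without replicate 3 of day 7 or replicate 1 of day 3. In the complement list 4 of 19 were called higher and 7 lower, beside 20.1% and 22.4% over all genes. The median of 0.15 turned to -0.54 without TMM. The shields of host cells Cd55 (108, 125 and 142 CPM at day 7 and 20.2, 30.1 and 37.4 CPM at day 3, log2 2.10 ± 0.21, adjusted p = 4.72e-08) and Cd59a (log2 1.75) rose. Properdin, Cfp (log2 -2.87), the receptors C3ar1 (log2 -2.62) and C5ar1, and C1qb and C1qc (log2 -2.13) were lower.

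Presentation on MHC class II gave 1 of 10 genes called higher and 4 lower (median log2 -0.33), beside 20.1% and 22.4% over all genes. The protease Ctss, which cuts the invariant chain, fell to 176, 218 and 294 CPM at day 7 against 1664, 2188 and 1626 CPM at day 3 (log2 -2.99 ± 0.25, adjusted p = 3.89e-09), and H2-DMa (log2 -1.34) fell with it. H2-Eb1, a chain of the presenting molecule, had 139, 206 and 214 CPM at day 7 and 119, 129 and 156 CPM at day 3 (log2 0.47 ± 0.18, adjusted p = 0.0402). The call of H2-Eb1 was lost, with none of the list then higher, without replicate 2 or 3 of day 7 or replicate 1 or 2 of day 3, and without replicate 1 of day 7, 3 were called higher.

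In the list of hypoxia and heme genes 4 of 16 were called higher and 5 lower (median log2 -0.07), beside 20.1% and 22.4% of all genes. The ferritin light chain Ftl1, which stores iron, fell to 331, 465 and 522 CPM at day 7 against 2672, 2634 and 2006 CPM at day 3 (log2 -2.47 ± 0.22, adjusted p = 8.06e-09). Heme oxygenase, Hmox1, which breaks down heme, fell to 14.5, 33.0 and 25.5 CPM at day 7 against 161, 90.9 and 81.2 CPM at day 3 (log2 -2.19 ± 0.35, adjusted p = 4.26e-05). The transferrin receptor Tfrc, which takes iron in, rose to 642, 596 and 493 CPM at day 7 against 140, 140 and 125 CPM at day 3 (log2 2.09 ± 0.20, adjusted p = 1.97e-08). All 3 genes separated the days completely. The iron exporter Slc40a1 (log2 1.01) and the mitophagy gene Bnip3 (log2 1.43) were higher, and Hif1a (log2 -1.10) and the biliverdin reductase Blvrb (log2 -1.02) lower.

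Of 19 collagens tested, which form the bulk of the connective tissue, 4 were called higher (20.1% over all genes) and 1 lower, and the median of 0.22 turned to -0.46 without TMM, when 1 was higher and 6 lower. Col1a1, the main fibrillar chain, had 3091, 4023 and 4556 CPM at day 7 and 3741, 4239 and 4162 CPM at day 3 (log2 -0.06 ± 0.22, adjusted p = 0.859). Col3a1 had 6651, 9784 and 10615 CPM at day 7 and 6630, 7212 and 6951 CPM at day 3 (log2 0.38 ± 0.26, adjusted p = 0.265). Both overlapped between the days, and both were named after their values were seen. The 4 called higher were the fibrillar chain Col11a1 and the chains Col4a1, Col4a2 and Col15a1 of basement membranes. Col11a1 rose most, to 18.2, 19.2 and 7.52 CPM at day 7 against 5.42, 3.56 and 6.99 CPM at day 3 (log2 1.49 ± 0.41, adjusted p = 0.00469), with replicate 3 of day 7 just above the highest day 3 library. Col4a1 rose to 383, 481 and 379 CPM at day 7 against 225, 143 and 209 CPM at day 3 (log2 1.11 ± 0.26, adjusted p = 0.00120), with Col4a2 (log2 1.06) and Col15a1 (log2 1.35) beside it. Col8a1 was the chain called lower (log2 -0.67), and none was without replicate 1 of day 7.

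Other matrix genes fell more often than they rose, with 4 of 31 called higher and 12 lower (median log2 -0.28). Thbs1, thrombospondin 1 of wound matrix, fell to 33.3, 38.7 and 46.7 CPM at day 7 against 277, 220 and 143 CPM at day 3 (log2 -2.43 ± 0.27, adjusted p = 2.10e-07), and the collagen cross-linking oxidases Lox (log2 -1.62) and Loxl3 (log2 -1.57) fell too. The small proteoglycans Dcn, decorin (939, 1173 and 1293 CPM at day 7 and 544, 676 and 586 CPM at day 3, log2 0.91 ± 0.17, adjusted p = 1.15e-04), and Lum, lumican (log2 0.91), rose. Fibronectin, Fn1 (log2 -0.28), named after its values were seen, did not pass the test. Of 24 proteases and inhibitors 6 were called higher and 12 lower (median log2 -0.57). Adam8, a protease of leukocytes, fell to 4.93, 8.91 and 13.7 CPM at day 7 against 204, 177 and 139 CPM at day 3 (log2 -4.23 ± 0.30, adjusted p = 1.35e-09), and the urokinase receptor Plaur (log2 -2.63) and the gelatinase Mmp9 (log2 -2.39) fell with it. Higher were the stromal gelatinase Mmp2 (log2 0.89), the collagenase Mmp13 (40.7, 61.7 and 50.5 CPM at day 7 and 24.2, 14.3 and 14.4 CPM at day 3, log2 1.53 ± 0.31, adjusted p = 3.40e-04) and the inhibitors Timp3 (log2 0.99) and Timp4 (log2 1.89).

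Stromal cell markers were called higher in 7 of 16 and lower in 1, with a median of 0.59 that turned to -0.10 without TMM. Pi16, a marker of fibroblasts around vessels and fascia, rose to 39.8, 53.7 and 105 CPM at day 7 against 11.2, 15.2 and 18.6 CPM at day 3 (log2 2.14 ± 0.47, adjusted p = 0.00110), and Clec3b, of the same cells, by a log2 of 2.06. Cd34 stood at 241, 361 and 298 CPM at day 7 and 107, 174 and 165 CPM at day 3 (log2 1.01 ± 0.18, adjusted p = 7.47e-05). Pdgfra, the gene whose promoter drives the Cre, had 64.6, 80.5 and 81.7 CPM at day 7 and 79.0, 72.2 and 55.1 CPM at day 3, with overlap (log2 0.14 ± 0.16, adjusted p = 0.522). Scaled by library size alone, Pdgfra was lower (a log2 value of -0.56, adjusted p = 0.0155). Ly6a, which encodes the stromal surface protein Sca1 and is also an interferon-responsive gene, was the marker called lower (log2 -0.43, adjusted p = 0.0368), and none was without replicate 1 or 3 of day 7 or replicate 1 or 2 of day 3. Of 10 tenocyte markers 4 were called higher and 1 lower (median log2 0.73, or 0.03 without TMM), among them Comp (log2 0.78, adjusted p = 0.0101). The tendon factor Scx fell to at most 0.921 CPM at day 7 against 2.60 to 3.15 CPM at day 3. Without replicate 1 of day 7, or replicate 1 or 2 of day 3, 2 tenocyte markers were higher.

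Vessels had higher levels at day 7 relative to the median gene. Of 16 endothelial markers 13 were called higher and none lower (median log2 0.94, or 0.25 without TMM, when 3 were higher and 2 lower), and 1 was lower without replicate 1 of day 3. Cdh5, the cadherin of endothelial junctions, rose to 72.3, 81.2 and 70.8 CPM at day 7 against 30.7, 22.9 and 30.9 CPM at day 3 (log2 1.41 ± 0.15, adjusted p = 1.09e-07). Kdr, the VEGF receptor, rose to 103, 115 and 108 CPM at day 7 against 33.6, 37.4 and 58.0 CPM at day 3 (log2 1.34 ± 0.17, adjusted p = 1.21e-06). The junction proteins Cldn5 (log2 1.10) and Esam (log2 1.03) and the receptor Tie1 (log2 1.02) rose by similar amounts. Among 13 markers of pericytes and smooth muscle 7 were called higher and 1 lower (median log2 1.02). The largest rise of this list was that of desmin, Des (log2 1.71), also a fibre protein. Rgs5, a pericyte marker, rose to 512, 586 and 495 CPM at day 7 against 207, 186 and 296 CPM at day 3 (log2 1.21 ± 0.16, adjusted p = 2.08e-06). The channel subunits Kcnj8 (log2 1.36) and Abcc9 (log2 1.51), the second expressed by muscle fibres too, followed. Acta2, smooth muscle actin of vessel walls and activated fibroblasts, fell to 169, 193 and 170 CPM at day 7 against 284, 383 and 631 CPM at day 3 (log2 -1.28 ± 0.19, adjusted p = 7.16e-06).

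None of 10 Schwann cell markers was called (median log2 -0.09). Of 11 adipocyte markers 3 were called higher and 1 lower, beside 20.1% and 22.4% over all genes (median log2 0.85, or 0.18 without TMM), and 5 were higher without replicate 1 of day 7. The lipid droplet protein Plin4 (112, 68.2 and 73.7 CPM at day 7 and 32.3, 15.7 and 31.8 CPM at day 3, log2 1.67 ± 0.32, adjusted p = 1.86e-04) and the lipase Pnpla2 (log2 1.09) are expressed by muscle fibres too, and Fabp4 (log2 0.93) by capillaries. Of 8 listed keratinocyte genes, which would mark skin, Krt5, Krt14, Krt1, Krt15 and Lor had no count in the 6 libraries. Of 5 red blood cell markers tested none was called. Of 10 muscle stem cell markers 2 were called higher and 5 lower, or 3 lower without replicate 1 of day 3 (median log2 -0.47), with the 2 called higher being desmin, Des, also a fibre protein, and Chodl (log2 1.69).

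In the heat shock list 9 of 19 were called higher and 6 lower (median log2 0.78, or 0.09 without TMM). Hspb6, a small heat shock protein of muscle, stood at 2454, 3489 and 2720 CPM at day 7 and 323, 509 and 709 CPM at day 3 (log2 2.49 ± 0.40, adjusted p = 3.55e-05). Hspb7 (log2 1.83), Hspb3 (log2 1.35), the cochaperone Bag3 (log2 1.11) and the methyltransferase Smyd1 (log2 1.60), which aids myosin assembly, rose too. Among those that fell, Hsp90aa1, a cytosolic chaperone, had 21.1, 28.4 and 28.2 CPM at day 7 and 134, 136 and 86.0 CPM at day 3 (log2 -2.19 ± 0.20, adjusted p = 1.13e-08), and the mitochondrial chaperones Hspe1 (log2 -0.82) and Hspd1 (log2 -0.58) were lower. Genes of endoplasmic reticulum stress and of the amino acid response controlled by ATF4 were lower in 15 of 26 and higher in 3 (median log2 -1.10). Its serine synthesis enzymes fell, Psat1 to 5.78, 14.9 and 19.2 CPM at day 7 against 158, 145 and 89.4 CPM at day 3 (log2 -3.29 ± 0.28, adjusted p = 5.79e-09) and Phgdh by 3.24 on the log2 scale, as did asparagine synthetase, Asns (log2 -2.10). The stress factor Ddit3 (log2 1.02) and the lipoprotein receptor Vldlr (log2 1.57) were higher. Cholesterol synthesis had 6 of 20 genes called lower and none higher (median log2 -0.44), Sqle (log2 -1.45) and Cyp51 (log2 -1.22) among them.

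Immediate early genes, which report recent stimulation, had 2 of 24 called higher and 6 lower (median log2 -0.26), beside 20.1% and 22.4% over all genes. The nuclear receptor Nr4a1 rose to 195, 123 and 124 CPM at day 7 against 27.7, 35.2 and 53.01 CPM at day 3 (log2 1.93 ± 0.27, adjusted p = 4.03e-06). The phosphatase Dusp1 had a log2 of 0.72, while Fosl1 (log2 -3.36) and Myc (log2 -0.75) fell. By annotation, 57.2% of the exon bases of Fosl1 overlap Ccdc85b on the other strand. Of 15 genes of atrophy and autophagy 4 were called higher and 5 lower (median log2 -0.07), beside the same 20.1% and 22.4%. The autophagosome protein Map1lc3a stood at 798, 793 and 817 CPM at day 7 and 119, 149 and 167 CPM at day 3 (log2 2.47 ± 0.26, adjusted p = 9.95e-08), and the factor Klf15 rose (log2 1.60). The metallothioneins Mt1 (log2 -1.27) and Mt2 (log2 -1.77) and the protease Ctsl (log2 -1.69) were lower. Of the exon bases of Mt2, 73.5% overlap an annotated gene on the other strand. Of 17 angiogenic ligands 3 were called higher and 3 lower, again beside 20.1% and 22.4%, and the median of 0.44 turned to -0.24 without TMM. Hgf, hepatocyte growth factor, which activates muscle stem cells, fell to 2.38, 1.53 and 0.614 CPM at day 7 against 9.04, 9.15 and 6.99 CPM at day 3 (log2 -2.48 ± 0.43, adjusted p = 5.68e-05), and Vegfb rose (log2 1.06).

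Piezo1, the channel the study is about, had 20.9, 22.6 and 21.6 CPM at day 7 and 21.2, 31.4 and 31.2 CPM at day 3, with overlap in 1 library (log2 -0.37 ± 0.21, adjusted p = 0.179). By annotation, 24.6% of its exon bases overlap Ctu2 on the other strand. Of 11 mechanosensitive channels 2 were called higher and 2 lower, beside 20.1% and 22.4% over all genes. The median of 0.12 turned to -0.58 without TMM. Tmem63b rose to 104, 91.7 and 78.8 CPM at day 7 against 36.1, 40.2 and 45.9 CPM at day 3 (log2 1.16 ± 0.17, adjusted p = 6.94e-06), and Pkd2 had a log2 of 0.67 (adjusted p = 0.00472), which turned below 0 without TMM. The heat and stretch channel Trpv2, also a channel of macrophages, fell to 11.6, 11.98 and 14.1 CPM at day 7 against 50.2, 60.3 and 48.6 CPM at day 3 (log2 -2.08 ± 0.20, adjusted p = 2.27e-08), and Trpv4 fell by 1.87 on the log2 scale.

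The largest differences without overlap and with at least 20 CPM in the higher group reached a log2 of 5.19 upward and -6.11 downward. Atp1b4, a muscle protein of the sodium pump beta family that sits at the nuclear membrane in mammals, had 82.8, 162 and 166 CPM at day 7 and 1.32, 3.66 and 6.17 CPM at day 3 (log2 5.19 ± 0.51, adjusted p = 2.17e-07). Thrsp, a regulator of fat synthesis, had 152, 212 and 188 CPM at day 7 and 13.2, 18.9 and 13.2 CPM at day 3 (log2 3.60 ± 0.25, adjusted p = 8.29e-10). Nmrk2, a kinase of NAD synthesis in muscle, had 373, 569 and 515 CPM at day 7 and 56.1, 69.0 and 39.6 CPM at day 3 (log2 3.14 ± 0.32, adjusted p = 7.76e-08). The same choice, by size of the difference and lack of overlap, also took Tceal7 (log2 3.88), the water channel Aqp4 of fast fibres (log2 3.12), the calcium-dependent kinase Camk2b (log2 3.10), Mss51 (log2 3.09) and the galactosyltransferase B3galt2 (log2 3.05).

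In the other direction, Gal, the neuropeptide galanin, had 1.19, 1.23 and 0.461 CPM at day 7 and 73.01, 88.7 and 39.3 CPM at day 3 (log2 -6.11 ± 0.43, adjusted p = 8.75e-10). Arg1, arginase of reparative macrophages, had 0.680, 0 and 0.307 CPM at day 7 and 46.1, 9.25 and 10.7 CPM at day 3 (log2 -6.03 ± 0.80, adjusted p = 8.20e-06), with replicate 1 of day 3 far above the others. F7, coagulation factor VII, had 0.170, 0.614 and 1.07 CPM at day 7 and 22.9, 32.6 and 47.0 CPM at day 3 (log2 -5.72 ± 0.57, adjusted p = 5.16e-08). These genes were close to undetected at day 7. Tubb3, a beta tubulin best known from neurons, fell by 4.17 on the log2 scale and the secreted protein R3hdml by 4.61, and the rest of this group, Cd300lf (log2 -4.71), Clec4e (log2 -4.22), Slfn4 (log2 -4.15) and Ccr1 (log2 -4.15), are genes of myeloid cells.

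In floxed mice the same comparison called 3996 genes higher and 4177 lower at day 7, 52.7% of those tested. The change differed between floxed and WT muscle in 254 genes (1.64%), 233 with a larger log2 in floxed muscle and 21 with a smaller one, and 2444 had an unadjusted p under 0.05. For all 233 genes the mean of the floxed day 3 libraries lay below that of the WT day 3 libraries, with a median ratio of floxed to WT of 1.03 at day 7 and 0.322 at day 3. A call of the interaction selects genes whose gap between genotypes changed between the days, so these values are partly set by the selection. Of these 233, 193 were also called higher in WT muscle. The count moved with single libraries: it was 344 without replicate 1, 64 without replicate 2 and 71 without replicate 3 of WT day 7, and 532 without replicate 1, 200 without replicate 2 and 64 without replicate 3 of WT day 3. It was 591 with DESeq2, 637 without the filter on low counts and 66 in a fit of the 12 day 7 and day 3 libraries alone. No floxed library was left out in turn, so how far the count rests on any of them was not tested. Replicate 1 of floxed day 3 had 4051973 counts, the lowest total of all TA libraries. Its sarcomere share was 0.947%, against 2.66% and 2.57% in replicates 2 and 3. The sarcomere lists took 0.947% to 2.66% of counts in floxed day 3 libraries and 5.35% to 8.39% in WT day 3 libraries, and which cells or fibres carried this difference was not tested.

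Among the chosen lists these genes lay mostly in fibre lists: 11 of 20 giant and Z-disc genes, 8 of 14 fast sarcomere genes, 9 of 22 calcium handling genes and 6 of 13 excitability genes, each with the larger log2 in floxed muscle. None of the 32 respiratory chain genes was among them. By adjusted p, Clu, the secreted chaperone clusterin, came first: its mean was 78.2 ± 10.9 CPM at day 7 and 10.1 ± 1.21 CPM at day 3 in floxed muscle (SD, n = 3 each). WT muscle had 55.3, 58.2 and 67.6 CPM at day 7 and 47.6, 34.1 and 69.8 CPM at day 3 (interaction log2 2.69 ± 0.36, adjusted p = 0.00247). Prkaa2, the muscle catalytic subunit of AMP kinase, averaged 112 ± 12.8 CPM at day 7 and 6.21 ± 2.09 CPM at day 3 in floxed muscle. In WT muscle Prkaa2 had 146, 107 and 111 CPM at day 7 and 23.1, 28.7 and 43.9 CPM at day 3 (interaction log2 2.21 ± 0.34, adjusted p = 0.00247). In both genes the genotypes stood closer at day 7 than at day 3, and both were chosen by the interaction, which selects for a changed gap. Myo18b (interaction log2 1.97), Lynx1 (1.72), Hhatl (2.22), Prob1 (1.88), Rnf123 (1.39), Wfdc1 (1.85), Tmod1 (1.97) and the channel subunit Kcnj11 (2.02) completed the 10 genes with the smallest p. The subunit Chrne also differed, at 31.1 ± 4.89 CPM at day 7 and 0.689 ± 0.577 CPM at day 3 in floxed muscle (interaction log2 2.52 ± 0.51, adjusted p = 0.0137). Chrng, at 12.2 ± 3.33 CPM at day 7 and 90.8 ± 32.5 CPM at day 3, did not pass that test (interaction log2 0.50 ± 0.49, adjusted p = 0.674). Neither Myog (interaction log2 0.26, adjusted p = 0.838) nor Mymx (interaction log2 0.83, adjusted p = 0.471) nor Adgre1 (interaction log2 0.09, adjusted p = 0.930) passed it, and their standard errors of 0.46, 0.53 and 0.32 leave smaller differences between the genotypes undetectable. Piezo1 averaged 20.7 ± 3.31 CPM at day 7 and 29.1 ± 8.41 CPM at day 3 in floxed muscle, values that counts over the whole gene cannot tie to the loss of floxed exons.

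**Figure D5:**
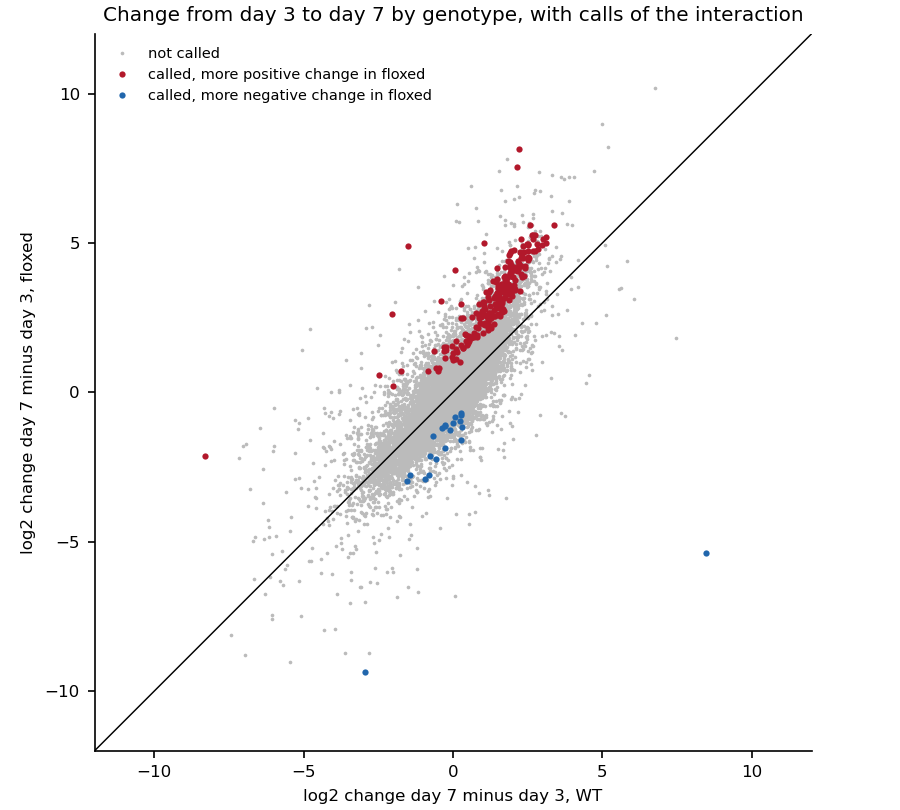
Log2 difference of day 7 minus day 3 in floxed muscle (vertical axis) against the same in WT muscle (horizontal axis) for each of the 15499 genes tested; coloured points are the 254 genes whose change differed between the genotypes. Of these, 233 lie above the line of equal change and 21 below it.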

How the data were processed

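The deposited file holds raw read counts per gene symbol for 90 libraries, which the authors made without normalization, using STAR 2.7.3a, featureCounts and the mm10 build, per the submitters' processing notes. Whole TA muscle was frozen and homogenised, and libraries were made from its RNA with a protocol for polyadenylated RNA, per the labels' protocols. The sources used here do not say whether strand was used, how reads with several matches were treated or which annotation was counted. Columns were matched to samples by name: 0 columns had no sample, and 12 columns matched a group only. GENCODE M21 held 52936 of 55011 symbols (96.2%) and gave exon lengths and positions.

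All 20 TA libraries entered a single fit with 6 groups in edgeR 4.0.16 (R 4.3.3): filterByExpr with a minimum count of 10, TMM scaling, quasi-likelihood test with robust dispersion. Contrasts were day 7 minus day 3 in WT, the same in floxed muscle, and their difference, each with Benjamini-Hochberg adjustment over 15499 genes at 0.05. The members and gene lists were chosen with earlier results of these data known. Of the genes the text names, most follow a rule: up to 12 called genes per direction with a mean of at least 20 CPM and no overlap, up to 5 called genes per direction and list (2 by p where none was called), all members of the 6 sarcomere, regulator, fusion and synapse lists, and the 10 smallest p of the difference between genotypes. Other genes are said to have been named after their values were seen, and isoform pairs and markers too low to be tested were added in the same way. Some genes the rule takes are not reported here by name but are in the counts. Alternatives were DESeq2 1.42.0, RLE scaling, all genes without the filter, only the libraries compared, the replicate block, each WT library left out and, chosen after seeing the data, library size alone. TA libraries held 4051973 to 10226407 counts. Simulated counts with known changes at WT day 7 were run through the edgeR fit, and only the WT contrast was read out. The simulation did not cover DESeq2, the floxed contrast, the interaction or the shift in composition between the days.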

Additional observations from a re-analysis of the deposited data

Results flagged for a closer look

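The change between day 7 and day 3 differed between floxed and WT muscle in 254 genes by the test of the interaction. The 10 with the smallest p had interaction log2 values of 2.69 for Clu, 1.97 for Myo18b, 1.88 for Prob1, 2.21 for Prkaa2, 1.72 for Lynx1, 2.22 for Hhatl, 1.39 for Rnf123, 1.85 for Wfdc1, 1.97 for Tmod1 and 2.02 for Kcnj11, each larger in floxed muscle. Among 13 genes looked at over the 4 WT day 1 libraries, Ccl2 had a library that stood apart from the other 3, at 611.3 CPM, and chance sets a library apart in about 1 in 20 such groups.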

How the results depend on the processing

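The 6590 genes called in WT muscle became 6588 with RLE scaling, 6835 with DESeq2, 6129 without the filter on low counts, 6334 with only the libraries compared, 6453 with the replicate block and 5544 to 6361 with a WT library left out, and in these settings 81.5% to 99.2% of the 6590 were called in the same direction. Same-numbered day 7 and day 3 libraries of WT muscle deviated together with r of -0.128, 0.0141 and -0.103, so the labels' numbers were not taken as pairs. Scaled by library size alone, 1107 genes were called higher and 7768 lower (12.5% of calls higher, against 47.2%), and 4585 of the 6590 (69.6%) were called in the same direction. The 254 genes whose change differed between the genotypes (233 positive, 21 negative) became 591 with DESeq2 (471 and 120), 637 without the filter (523 and 114), 66 with only the libraries compared (66 and 0), 293 with the replicate block, and 64 to 532 with a WT library left out (62 to 466 positive and 0 to 66 negative); the cause was not tested. With library size alone, 8 called genes turned below 0, at -0.0218 for Myf6, -0.22 for Mef2d, -0.0078 for Dysf, -0.28 for Neo1, -0.0603 for Rrp12, -0.21 for H2-Eb1, -0.22 for Mfge8 and -0.0134 for Pkd2. Genes not called turned as well, to -0.49 for Tnnt1, -0.30 for Tnni1, -0.53 for Pax7, -0.24 for Six4, -0.49 for Msc, -0.32 for Itgb1, -0.49 for Boc, -0.37 for Lrp4, -0.19 for Agrn, -0.14 for Etv5, -0.42 for Clu, -0.30 for Col3a1 and -0.56 for Pdgfra. Myl4 (-0.00) turned to 0.0202 with RLE scaling, 0.0199 with DESeq2, 0.0114 with only the libraries compared, 0.0379 with the replicate block and -0.242 to 0.435 with a WT library left out. The range with a library left out also crossed 0 for Pax7 (-0.0634 to 0.44), Myf5 (-1.08 to 0.019), Col1a1 (-0.184 to 0.0804), Boc (-0.0457 to 0.411) and Pdgfra (-0.00481 to 0.241). Apart from library size alone and libraries left out, calls were lost for Itga7 and Kcnn3 with RLE scaling, for Ifit3, Kcnn3, Mef2d, Neo1 and Tnnc1 without the filter, for Hdc, Kcnn3 and Ly6a with only the libraries compared and for Neo1 with the replicate block. Genes gained in these settings were Agrn (RLE scaling, DESeq2), Etv5 (only the libraries compared) and Mstn (no filter, only the libraries compared). In these settings further counts per list moved by over 1.5 times with only the libraries compared (regulators higher 5, imprinted lower 2, MHC class II higher 2, mast cells lower 0, stromal lower 0), with DESeq2 (MHC class II higher 2, angiogenic ligands higher 5, mast cells higher 4) and without the filter (T and NK cells lower 1, red blood cells lower 2). The 3 libraries per group limit what can be called for genes of few counts.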
